A study of Mus musculus with 8 samples.

Results

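Gene expression in the left ventricle of pregnant mice was compared with that of mice that were not pregnant, taking the pregnant states together and the non-pregnant states together. The members were chosen by the sample titles: 4 arrays titled as pregnant (2 from day 12 and 2 from day 19 of gestation) were set against 4 arrays titled as diestrus or post-partum (2 each), so that all 8 of the 8 arrays of the series were used. All mice were C57BL/6 females of 3 to 4 months, and no group carried a transgene, a deletion or a treatment. Diestrus is the quiet phase of the estrous cycle, and the post-partum group was taken 1.5 days after birth. The labels' protocol text gives the late pregnant group as 18/19 days. Each array measured RNA from 1 of several pieces of a left ventricle, starting from 100 ng of total RNA. The labels do not tie arrays to animals, so the p-values below measure only the spread between these samples, which may be technical in part. The tissue was whole ventricle, in which fewer cells of a type and less RNA per cell cannot be told apart.

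During pregnancy the heart pumps for a larger blood volume and grows in a way that reverses after birth, while hormones of the placenta and the ovary turn maternal metabolism toward fat. The heart muscle cell burns mainly fatty acids. The switch away from glucose is set in part by pyruvate dehydrogenase kinases, which inhibit the enzyme pyruvate dehydrogenase in the mitochondrion. A gene set by the pregnant state itself would stand apart in both pregnant states and lie at one level in diestrus and after birth. A gene set by late pregnancy would be high on day 19 alone. Either shape can also arise by chance.

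Heart muscle markers were checked first, and atrial markers are given further below. All 14 cardiomyocyte markers were among the genes tested. Myh6, the main ventricular myosin of the adult mouse, lay between 12.34 and 12.60 on the log2 scale on the 8 arrays, and Pln, the inhibitor of the calcium pump, between 12.89 and 13.08. The median difference of the list, pregnant minus non-pregnant, was -0.07, with 11 of the 14 lower. Pln itself lay lower on all 4 pregnant arrays, by 0.00656 at the nearest arrays and -0.08 ± 0.08 in the mean. Among the 14 markers only Pln was without overlap (7.14%, against 2.01% of all genes lower). Its pools overlapped after a second quantile normalization and after median centring. The 8 arrays correlated at 0.980 to 0.992 with each other apart from day 19 replicate 2, which correlated at 0.969 to 0.977 with the other 7. In a fit with array weights, day 19 replicate 2 received a weight of 0.209, against 0.377 to 2.12 for the others. Values below are log2 RMA expression, and a difference of 1 is a 2-fold difference in the deposited signal.

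No gene passed the test. In limma's moderated test with 1 mean per pool, 0 of 13872 genes (0%) had an adjusted p under 0.05, and the smallest adjusted p was 0.44. At an unadjusted p under 0.05 there were 644 genes (4.64%), 265 higher and 379 lower in pregnancy, and at 0.01 there were 101 (0.728%), 33 higher and 68 lower. With 1 mean for each of the 4 states the count of calls was also 0, with a smallest adjusted p of 0.0649, and 0 genes passed in any of the other fits that were run. The typical standard error of a difference was 0.128. The genes are therefore described by whether the pools overlap, without the words of a change.

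The 4 pregnant arrays all lay above the 4 non-pregnant arrays for 202 genes (1.46% of those tested) and all lay below them for 279 genes (2.01%), which makes 481 genes (3.47%) whose pools did not overlap. Among genes simulated without a difference, 2.83% also met this condition in 1 direction or the other. A share of this order therefore arises without any difference between the pools. Of the 481 genes, 184 of the 202 and 241 of the 279 were protein coding. The differences were small: the median was 0.28 for the higher genes and -0.27 for the lower genes, against 0.01 over all genes tested. A difference over 1 was seen for 5 higher and 12 lower genes, and over 0.5 for 40 and 36. The distance between the nearest arrays of the pools was smaller still, with a median of 0.0373 for the higher genes and 0.0413 for the lower, and exceeded 0.1 for 35 and 52 genes. Most of the 481 genes thus separated the pools by less than the typical standard error. Of the higher genes, 24 passed the filter on low values only through a pregnant state, and of the lower genes 12 only through a non-pregnant state.

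Both non-pregnant states contributed. For the 202 higher genes the median difference was 0.25 from diestrus and 0.30 from the post-partum hearts, and for the 279 lower genes it was -0.23 and -0.31. The contrasts share the pregnant arrays, and the choice of genes fixes their sign. In 190 of the 279 lower genes the post-partum mean lay beyond the diestrus mean on the side away from pregnancy, and in 114 of the 202 higher genes likewise. Both post-partum arrays lay beyond both diestrus arrays on that side for 69 lower and 41 higher genes. The reverse, both post-partum arrays between the diestrus and the pregnant arrays, held for 30 lower and 31 higher genes. Within pregnancy, the day 19 mean was farther from the non-pregnant mean than the day 12 mean for 139 of the 202 higher and 160 of the 279 lower genes. Both day 19 arrays lay beyond both day 12 arrays for 50 higher and 65 lower genes, and the reverse held for 25 and 50. None of these counts was made for the other genes tested, so they only describe the genes whose pools did not overlap.

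**Figure D1:**
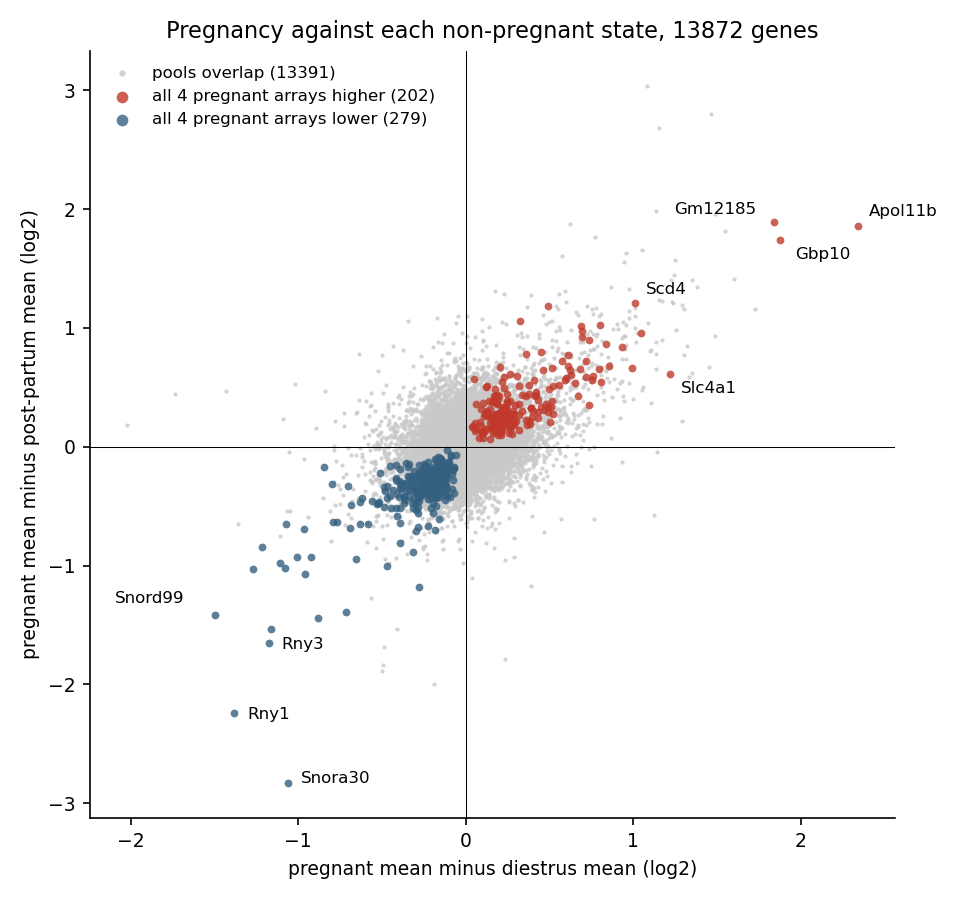
Each point is 1 of the 13872 genes tested, with the pregnant mean minus the diestrus mean on the x axis and the pregnant mean minus the post-partum mean on the y axis, both in log2; red and blue points are the 202 and 279 genes whose pools did not overlap. The axes share the pregnant arrays, so the slope of the cloud is not a result; the lower left holds small RNA genes such as Rny1 and Snord99, and the upper right holds Apol11b and Gbp10.

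Of the lists examined, fatty acid use held the most higher genes whose pools did not overlap. Pdk4, the pyruvate dehydrogenase kinase that spares glucose when fat is burned, read 10.65 and 10.44 in diestrus, 11.51 and 11.38 on day 12, 11.30 and 11.33 on day 19, and 10.23 and 10.80 post-partum. All 4 pregnant arrays lay at one level, 0.85 ± 0.13 (SE, 4 against 4) above the others or 1.81-fold, with an unadjusted p of 8e-05 and an adjusted p of 0.44 from limma. Day 19 differed from day 12 by -0.13. The difference was 0.84 from diestrus and 0.87 from post-partum, so 1.5 days after birth the post-partum mean was close to that of diestrus. The distance between the pools was 0.50.

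Angptl4, a secreted inhibitor of lipoprotein lipase and a classic target of the fatty acid receptors, read 5.23 and 5.21 in diestrus, 6.30 and 5.87 on day 12, 6.49 and 6.20 on day 19, and 5.54 and 5.56 post-partum. The pregnant arrays were 0.83 ± 0.15 higher (1.78-fold, adjusted p 0.44 from limma). The post-partum arrays lay between the diestrus and the pregnant arrays, 0.33 above diestrus. Scd4, a stearoyl-CoA desaturase that is found mainly in the heart and makes monounsaturated fatty acids, read 6.78 and 6.55 in diestrus, 7.26 and 7.39 on day 12, 8.07 and 7.99 on day 19, and 6.42 and 6.51 post-partum. It was the steepest of these genes, 1.11 ± 0.19 higher in the pregnant pool (2.16-fold, adjusted p 0.44 from limma), with day 19 0.71 above day 12 and both days above every non-pregnant array. Scd1, the widely expressed desaturase, overlapped: Scd1 read 7.60 and 8.02 on day 12, 8.53 and 6.63 on day 19, and 8.09 to 8.50 on the non-pregnant arrays.

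The list of 39 fatty acid genes had 34 members tested, of which 31 were higher and 3 lower in the pregnant pool, with a median difference of 0.17 against 0.01 over all genes. The pools did not overlap for 6 of the 34, all higher (17.6% of the list, against 1.46% of all genes): Pdk4, Angptl4, Acot1, Acot2, Ech1 and Eci1. 0 of them passed the test. The list was chosen with earlier results of these data known, so its direction is no independent evidence. Acot1, a cytosolic acyl-CoA thioesterase, read 5.40 and 5.08 in diestrus, 5.64 and 5.73 on day 12, 5.46 and 5.57 on day 19, and 4.66 and 4.97 post-partum. The distance between the pools of Acot1 was 0.0606, and they overlapped when the arrays were quantile normalized again. Acot2, its mitochondrial relative, read 10.70 and 10.54 in diestrus, 10.90 to 11.01 on the 4 pregnant arrays, and 9.22 and 10.56 post-partum. The low post-partum replicate 2 set much of the mean difference of Acot2, which was 0.32 from diestrus and 1.06 from post-partum. Ech1 and Eci1, enoyl-CoA isomerases that prepare unsaturated fatty acids for oxidation, differed by 0.17 ± 0.08 and 0.26 ± 0.09.

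Other members overlapped. The medium-chain dehydrogenase gene Acadm read 12.50 and 12.51 in diestrus and 12.61 and 12.66 on day 12, but 12.63 and 12.30 on day 19. Ucp3, a mitochondrial carrier that follows fatty acid supply, was high on day 12 (7.85 and 7.65) and not on day 19 (6.96 and 6.71). Ppara itself, the receptor of fatty acids in heart muscle, differed by 0.04 ± 0.17, and its coactivator Ppargc1a by 0.17 ± 0.14. Measured against the mean of the non-pregnant arrays, the list's median was 0.25 and 0.21 on the day 12 arrays and 0.17 on day 19 replicate 1, but -0.01 on day 19 replicate 2. Without that array the median over the list was 0.23, and without both day 12 arrays it was 0.08. Markers of fat cells, some of which also act in fat breakdown in other cells, were higher in the pregnant pool too. This held for all 6 of the adipocyte genes tested, of 11 listed, with a median of 0.23. The pools did not overlap for 0 of the 6, against 1.46% of all genes higher. By array that list stood at 0.04 and 0.17 on day 12 and 0.47 and -0.04 on day 19, against -0.11 to 0.11 on the non-pregnant arrays. Lipe, the hormone-sensitive lipase, differed by 0.37 ± 0.13, Pnpla2, the first lipase of fat droplets, by 0.24 ± 0.13, and Plin1, the droplet coat of fat cells, read 4.87 to 5.74 on the 8 arrays; Adipoq was not among the genes tested. The part of fat cells in the fatty acid values was not tested.

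**Figure D2:**
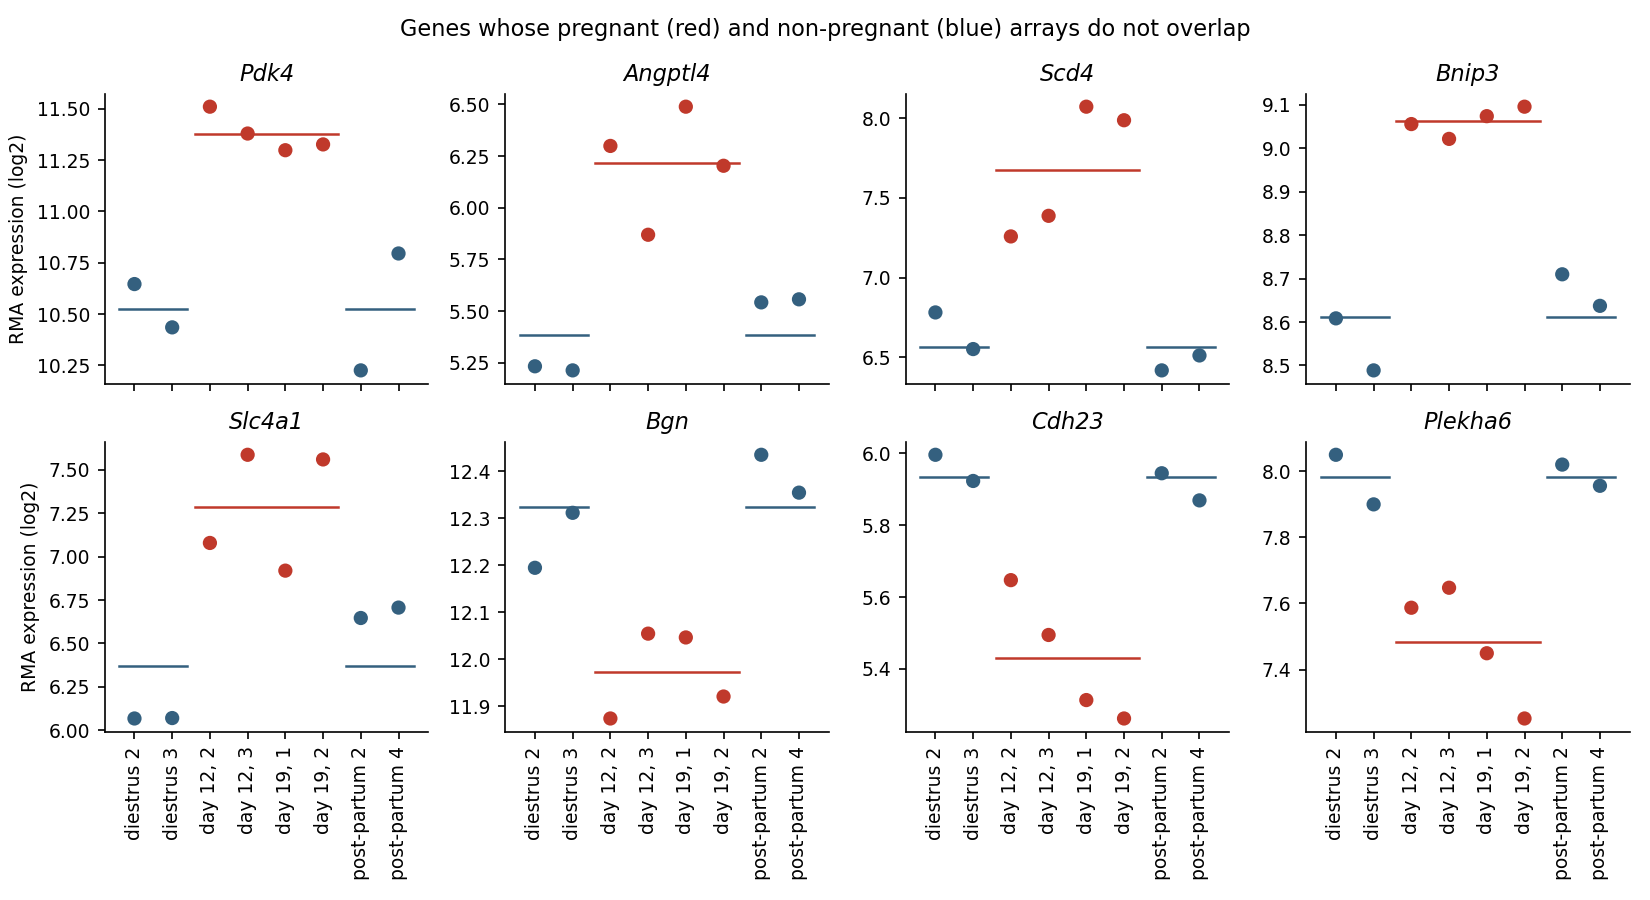
RMA expression (log2) of 8 genes on each array, with the replicate number after the state; red points are pregnant and blue points non-pregnant arrays, and each line is the mean of its pool of 4. Pdk4 and Bnip3 show 1 level over all 4 pregnant arrays, Scd4 is higher on day 19 than on day 12, Slc4a1 is lowest in diestrus, and Bgn, Cdh23 and Plekha6 are lower on all pregnant arrays.

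Bnip3, a mitochondrial protein that marks mitochondria for autophagy, read 8.61 and 8.49 in diestrus, 9.06 and 9.02 on day 12, 9.07 and 9.10 on day 19, and 8.71 and 8.64 post-partum. Its pregnant arrays spanned less than 0.1 and lay 0.45 ± 0.08 above the others (1.37-fold, adjusted p 0.51 from limma). It was the 1 member of the 15 in the atrophy and autophagy list whose pools did not overlap (6.67%, against 1.46% of all genes higher). The list's median difference was 0.01. Retsat, which saturates retinol and was named after its values were seen, read 9.42 and 9.51 on day 12, 9.47 and 9.11 on day 19, and 8.81 to 9.08 on the non-pregnant arrays.

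The promoters of Pdk4, Acot1 and Bnip3 are shown because these genes stood together in both pregnant states; the RefSeq promoter table (GRCm38.p6) gave them 1 start each, and it gave none for Angptl4. Each stretch runs from 250 bases before the transcription start to 50 after it. Pdk4 lies at chr6:5496229-5496528, minus strand, Acot1 at chr12:84009252-84009551, plus strand and Bnip3 at chr7:138909457-138909756, minus strand. The capitals mark a match to the steroid receptor element ACANNNTGT, which begins 200 bases before the start of Acot1, and to the E-box CACGTG, which begins 108 bases before the start of Bnip3; Pdk4 held none of the 5 motifs searched.
Pdk4: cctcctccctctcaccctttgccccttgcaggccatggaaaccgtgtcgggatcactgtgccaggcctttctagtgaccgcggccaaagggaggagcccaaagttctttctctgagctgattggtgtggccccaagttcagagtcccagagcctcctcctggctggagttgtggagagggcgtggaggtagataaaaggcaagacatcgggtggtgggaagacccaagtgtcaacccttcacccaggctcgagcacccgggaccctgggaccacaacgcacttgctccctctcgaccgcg
Acot1: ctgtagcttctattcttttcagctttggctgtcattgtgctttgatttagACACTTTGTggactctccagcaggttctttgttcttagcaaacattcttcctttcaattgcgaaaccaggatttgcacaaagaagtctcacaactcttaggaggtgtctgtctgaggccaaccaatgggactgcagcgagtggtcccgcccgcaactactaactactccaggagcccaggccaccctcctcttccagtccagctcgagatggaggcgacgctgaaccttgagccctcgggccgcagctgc
Bnip3: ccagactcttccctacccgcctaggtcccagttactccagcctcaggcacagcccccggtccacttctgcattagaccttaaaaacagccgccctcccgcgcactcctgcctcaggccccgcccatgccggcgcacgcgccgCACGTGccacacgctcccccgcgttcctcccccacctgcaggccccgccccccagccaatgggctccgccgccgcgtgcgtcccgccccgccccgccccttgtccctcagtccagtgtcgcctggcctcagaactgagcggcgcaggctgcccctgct
A match says only that these letters occur in the window. Over the genes with a promoter in the table, 10 of the 147 higher genes (6.8%) and 8 of the 195 lower genes (4.1%) held the steroid element on either strand, against 5.29% of 10873 genes tested. The E-box was held by 10.9% of the higher and 11.8% of the lower genes, against 11.3%. The fatty acid receptor element DR1 (AGGTCA repeated directly after 1 base) and the estrogen response element (GGTCA, any 3 bases, TGACC) were held by 0 of the 147 and 0 of the 195, and by 0.0644% and 0.0368% of all. The STAT element TTCNNNGAA was held by 22 of the 147 higher genes (15%), by 8.72% of the lower and by 8.14% of all; STAT proteins carry prolactin and interferon signals. The shares were not tested.

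Several of the larger differences were in genes of red blood cells and immune cells. Slc4a1, the anion exchanger of the red cell membrane, read 6.07 and 6.07 in diestrus, 7.08 and 7.59 on day 12, 6.92 and 7.56 on day 19, and 6.65 and 6.71 post-partum. It stood 0.91 ± 0.21 higher in the pregnant pool (1.89-fold), 1.22 above diestrus and 0.61 above post-partum, with an adjusted p of 0.91 from limma. Tent5c, a poly(A) polymerase rich in red cell precursors, and Isg20, an RNA exonuclease induced by interferon, ranked the 4 pregnant arrays in the same order. Tent5c read 7.18 and 7.59 on day 12 and 6.83 and 7.41 on day 19 against 6.42 to 6.71 on the others, and Isg20 read 7.08 and 7.64, 6.89 and 7.61, against 6.44 to 6.76. The red cell list had 17 genes, of which 10 were measured and 7 tested; 4 were higher and 3 lower, and only Slc4a1 and Tent5c did not overlap (28.6% of those tested, against 1.46% of all genes). The list's median by array ran from -0.05 to 0.53 in the pregnant pool and from -0.18 to 0.27 in the non-pregnant pool, and the part of residual blood in these values was not tested.

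Apol11b, an apolipoprotein L family gene, had the widest distance between the pools among named coding genes, 0.56. It read 3.87 and 4.70 in diestrus, 5.85 and 6.97 on day 12, 5.37 and 8.30 on day 19, and 4.81 and 4.73 post-partum, a difference of 2.10 ± 0.55. Its non-pregnant values lay below the median of all values (5.19), so it was tested only through its pregnant values. Gbp10, an interferon-induced GTPase named after its values were seen, read 6.99 and 7.36 on day 12, 7.01 and 12.34 on day 19, and 6.52 to 6.72 on the non-pregnant arrays. The same shape, with all 4 pregnant arrays higher and day 19 replicate 2 far above the rest, was seen for Herc6 (9.84 on that array, 7.01 to 7.19 on the other pregnant arrays, 6.60 to 6.93 on the non-pregnant), for the inflammatory caspase Casp1 (7.35, 5.45 to 5.62 and 5.02 to 5.33) and for Lcn2, an acute phase carrier of iron-binding siderophores (8.32, 6.56 to 6.75 and 5.91 to 6.52). Hp, the hemoglobin scavenger haptoglobin, read 4.78 and 5.04 in diestrus, 5.20 and 5.34 on day 12, 5.86 and 6.44 on day 19, and 5.02 and 5.08 post-partum.

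The immune lists were highest on 1 array. All 13 interferon genes tested were higher in the pregnant pool, with a median difference of 0.76. The pools did not overlap for 0 of the 13, against 1.46% of all genes higher. Their median by array was 0.41 and 0.32 on day 12, 0.04 on day 19 replicate 1 and 2.36 on day 19 replicate 2, against -0.18 to 0.23 on the non-pregnant arrays. Without day 19 replicate 2 the list's median difference was 0.23. The macrophage list (18 of 20 higher, median 0.29), the lymphocyte list (7 of 8, 0.44), the MHC class II list (5 of 5, 0.86) and the chemokine, complement and acute phase list (19 of 22, 0.84) had medians of 1.27, 1.87, 2.81 and 2.58 on that array. On the other 3 pregnant arrays the macrophage list lay between -0.10 and 0.04 and the lymphocyte list between -0.12 and 0.04. Without day 19 replicate 2 the median differences were -0.05 for the macrophage list, -0.00194 for the lymphocyte list, 0.21 for MHC class II and -0.04 for the chemokine, complement and acute phase list. The part of these cells in any single gene's difference was not tested.

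Of the 22 higher genes with the STAT element, Isg20 and Tnfaip6 are shown, as genes tied to interferon or inflammation. Unlike the immune lists above, Isg20 was not highest on day 19 replicate 2 (7.61) but on day 12 replicate 3 (7.64). Tnfaip6 encodes a hyaluronan-binding protein of inflamed and ovulatory tissue; it read 4.96 and 5.29 on day 12, 5.24 and 6.49 on day 19, and 4.84 to 4.92 on the non-pregnant arrays. Isg20 has 3 starts in the table, of which only the one shown holds the element; it lies at chr7:78913174-78913473, plus strand; Tnfaip6 lies at chr2:52037863-52038162, plus strand. The capitals mark TTCNNNGAA, which begins 73 bases before the start of Isg20 and 209 before that of Tnfaip6.
Isg20: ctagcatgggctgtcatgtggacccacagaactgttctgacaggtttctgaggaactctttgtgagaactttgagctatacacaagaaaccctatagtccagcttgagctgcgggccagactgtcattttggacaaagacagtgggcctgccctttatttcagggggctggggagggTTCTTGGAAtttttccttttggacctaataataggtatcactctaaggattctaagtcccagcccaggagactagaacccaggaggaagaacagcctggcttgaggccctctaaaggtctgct
Tnfaip6: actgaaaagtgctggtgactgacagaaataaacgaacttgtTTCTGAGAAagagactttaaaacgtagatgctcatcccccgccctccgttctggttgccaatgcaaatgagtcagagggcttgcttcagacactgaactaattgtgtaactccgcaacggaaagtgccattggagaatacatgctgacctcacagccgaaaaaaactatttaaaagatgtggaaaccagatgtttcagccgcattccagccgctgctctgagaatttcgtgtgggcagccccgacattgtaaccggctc
Agt, the precursor of angiotensin, was another higher gene with this element and was named after its values were seen. It read 6.37 and 5.80 in diestrus, 6.96 and 6.68 on day 12, 6.60 and 7.03 on day 19, and 6.45 and 6.49 post-partum.

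The other named higher genes were of mixed kind. Of those described here, Mmp13, Grap2 and Hmga2-ps1, like Hp and Tnfaip6 above, passed the filter on low values only through a pregnant state, where they were high. Mmp13, a collagenase, read 5.45 and 5.56 on day 12, 5.02 and 5.94 on day 19 and 4.47 to 4.98 on the non-pregnant arrays; its pools overlapped when the arrays were quantile normalized again. Ms4a4a, a macrophage surface protein, and Grap2, an adaptor of T cell signalling, stood 0.68 ± 0.17 and 0.65 ± 0.17 higher. Cd24a, a glycoprotein of young blood cells and epithelia, stood 0.67 ± 0.17 higher in 1 probe set, while its other, dimmer probe set gave -0.12 and overlapped. Hmga2-ps1, a pseudogene, read 5.08 and 5.43 on day 12, 5.69 and 5.47 on day 19, and 4.44 to 4.80 on the others. Fkbp5, a target of the glucocorticoid receptor, stood 0.28 ± 0.11 higher, and 15 of the 18 glucocorticoid targets tested were higher, with a median of 0.10 and 2 members that did not overlap, Fkbp5 and Lcn2 (11.1%, against 1.46% of all genes). Leaving out 1 array moved that median from 0.0611 (without day 12 replicate 3) to 0.152 (without day 19 replicate 2). Fosb, an immediate-early transcription factor, stood 0.39 ± 0.115 higher; Fkbp5 and Fosb overlapped when the arrays were centred on their medians.

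Genes of protein folding in the endoplasmic reticulum were higher by small amounts. Of the 20 ER stress genes tested, 18 were higher, with a median of 0.22, and the pools did not overlap for Hspa5, Pdia6 and Canx (15% of the list, against 1.46% of all genes). The count of such members was 2 after a second quantile normalization and 1 after median centring. Hspa5, the main chaperone of this compartment, read 9.23 and 9.03 in diestrus, 9.28 and 9.33 on day 12, 9.39 and 9.64 on day 19, and 9.16 and 9.06 post-partum. The distance between its pools was 0.0509, and those of Pdia6 and Canx were 0.00118 and 0.0219. The list's median was 0.45 on day 19 replicate 2 and 0.09 to 0.16 on the other pregnant arrays. It was -0.04 to 0.09 on the non-pregnant arrays, of which diestrus replicate 2 stood above day 12 replicate 2. Without day 19 replicate 2 the median difference was 0.12.

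Among matrix genes, the proteoglycans were lower against both non-pregnant states. Bgn, the small proteoglycan biglycan, read 12.19 and 12.31 in diestrus, 11.87 and 12.05 on day 12, 12.05 and 11.92 on day 19, and 12.44 and 12.35 post-partum. Its pregnant arrays were 0.35 ± 0.09 lower on the log2 scale (1.27-fold lower), and its other probe set gave -0.59 and did not overlap either. Aspn, the related proteoglycan asporin, read 9.20 and 9.52 in diestrus, 8.79 and 8.97 on day 12, 8.96 and 7.94 on day 19, and 9.32 and 9.37 post-partum, a difference of -0.69 ± 0.22. Of the 11 proteoglycans tested, 10 were lower, with a median of -0.27 against 0.01 over all genes, and Aspn and Bgn did not overlap (18.2% of the list, against 2.01%). The list's median was -0.29 and -0.25 on day 12 and -0.17 and -0.40 on day 19, below the non-pregnant range of -0.13 to 0.11. Dcn, the abundant proteoglycan decorin, was nearly level at -0.09 ± 0.10.

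Of the 23 matricellular and matrix glycoproteins, 19 were lower, with a median of -0.22, and Fbln2, Ltbp4 and Tnxb did not overlap. They make 13% of the list, against 2.01% of all genes. By array the list stood at -0.30 and -0.14 on day 12 and at 0.04 and -0.63 on day 19, against -0.13 to 0.10 on the non-pregnant arrays, which overlap. Its median difference was -0.11 without day 19 replicate 2 and -0.34 without day 19 replicate 1. Fbln2, fibulin-2 of elastic and valve matrix, read 8.48 and 8.53 in diestrus, 8.15 and 8.19 on day 12, 8.38 and 7.74 on day 19, and 8.55 and 8.96 post-partum. Tnxb, tenascin-X, read 8.06 and 7.92 in diestrus, 7.90 and 7.59 on day 12, 7.77 and 7.56 on day 19, and 8.49 and 8.27 post-partum. For both, the post-partum arrays were highest, and the distance of the pregnant arrays from diestrus was the smaller: -0.39 and -0.28, against -0.64 and -0.67 from post-partum.

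Of the 22 collagens tested, 18 were lower in the pooled comparison. The pools did not overlap for 0 of the 22, against 2.01% of all genes lower. The list's median was -0.04 from diestrus and -0.35 from post-partum. The proteoglycan medians from these states were -0.33 and -0.39; the lists were not tested against each other. On day 19 replicate 1 the collagen list stood at -0.06, above both diestrus arrays at -0.16 and -0.15. Col1a1 read 8.05 and 8.27 in diestrus, 8.06 and 8.07 on day 12, 8.44 and 7.93 on day 19, and 8.65 and 8.82 post-partum, so the difference was -0.03 from diestrus and -0.61 from post-partum, and -0.32 ± 0.18 in the pooled comparison. Col8a1 read 9.02 and 8.73 post-partum against 6.22 to 7.53 on the other 6 arrays. The cell cycle list split in the same way: 27 of 32 were lower, with a median of -0.17, which was 0.12 from diestrus and -0.42 from post-partum. Without post-partum replicate 4 the medians of the collagen and cell cycle lists were -0.12 and -0.03. The fibroblast list had a median of -0.14, with 12 of 16 lower, and stood at -0.42 on day 19 replicate 2 and -0.35 on post-partum replicate 2, against -0.13 to 0.16 on the other arrays; without day 19 replicate 2 its median difference was -0.07. The part of fibroblast number in the matrix values was not tested.

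The other lower genes were of mixed kind. Cdh23, a long cadherin, read 6.00 and 5.92 in diestrus, 5.65 and 5.49 on day 12, 5.31 and 5.26 on day 19, and 5.95 and 5.87 post-partum, a difference of -0.50 ± 0.11 (adjusted p 0.74 from limma). Plekha6, a pleckstrin homology domain protein, read 8.05 and 7.90 in diestrus, 7.59 and 7.65 on day 12, 7.45 and 7.25 on day 19, and 8.02 and 7.96 post-partum. Its distance between the pools was 0.25. Both genes were lower on day 19 than on day 12 and back at the diestrus level after birth. Akap5, an anchor of protein kinase A at the membrane, Kcnip1, a potassium channel subunit, Nkrf, a repressor of NF-kappaB targets, Mdga1, Kif5c and Gfra2 stood 0.42 to 0.50 lower, with differences of -0.48, -0.50, -0.46, -0.45, -0.43 and -0.42. Of these, Kcnip1 and Kif5c passed the filter on low values only through a non-pregnant state, where they were high. Gper1, the membrane estrogen receptor, differed by -0.36 ± 0.14. It was the 1 member of the 19 hormone receptor and target genes whose pools did not overlap (5.26%, against 2.01% of all genes lower). Its distance between the pools was 0.000766, and the pools overlapped after a repeated quantile normalization. The nuclear estrogen receptor gene Esr1 differed by -0.09 ± 0.26.

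Ep400 and Ppan differed by -0.83 and -0.70, but only in the brighter of their 2 probe sets. Ep400, a chromatin remodeller, read 8.62 and 9.29 in diestrus, 7.63 and 7.71 on day 12, 8.19 and 8.40 on day 19, and 8.81 and 8.54 post-partum. The other probe set of Ep400 gave -0.01 and that of Ppan, a ribosome assembly factor, -0.04. The RefSeq gene table places snoRNA genes inside both genes, 1 in Ep400 and 2 in Ppan, and which transcript the brighter probe sets read was not tested.

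Small RNA genes held the widest distances between the pools; this group was singled out after the values were seen. Small nucleolar RNAs (snoRNAs) are short guides, mostly cut from introns, that direct the modification of ribosomal RNA. Of 80 snoRNA genes measured, 53 were tested: 45 were lower and 8 higher in the pregnant pool, with a median of -0.48. The pools did not overlap for 16 of the 53, all lower (30.2%, against 2.01% of all genes). Snord99 read 8.55 and 9.10 in diestrus, 6.94 and 6.89 on day 12, 7.70 and 7.78 on day 19, and 8.52 and 8.97 post-partum. It stood 1.46 log2 units lower (-1.46 ± 0.23, 2.75-fold lower, unadjusted p 0.000121 and adjusted p 0.44 from limma), with 0.74 between the pools, the widest distance of any gene tested. Snord82 read 9.92 and 10.22 in diestrus, 8.88 and 8.61 on day 12, 9.17 and 9.29 on day 19, and 9.93 and 10.09 post-partum, a difference of -1.05 ± 0.15. Both were lowest on day 12, partly higher on day 19 and at the diestrus level after birth.

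Snord71, Snord49a, Snord49b, Snord47 and Snord89 were also lowest on day 12 and partly higher on day 19 by their means, with differences of -1.01, -0.97, -1.03, -1.35 and -0.93. Day 19 lay above day 12 by 0.59 for Snord71, 0.37 for Snord49a, 0.64 for Snord49b, 0.62 for Snord47 and 0.73 for Snord89. After birth they were not all at the diestrus level: post-partum minus diestrus was -0.37 for Snord49b and 0.37 for Snord47. Snora30 had the largest mean difference, -1.94 ± 0.86, but it rested on post-partum replicate 2, which read 10.67 against 6.12 to 6.76 on the other non-pregnant arrays and 5.10 to 5.96 on the pregnant arrays. Over the 53 genes, the median level relative to the non-pregnant mean was -0.79 and -0.32 on day 12, -0.28 and -0.42 on day 19, -0.16 and 0.18 in diestrus, and 0.02 and -0.11 post-partum. Without day 12 replicate 2 the list's median difference was -0.35, and it was -0.50 after a repeated quantile normalization, in which 15 of the 53 still did not overlap.

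The genes that contain the snoRNA genes, where they were tested, lay near the median of all genes. For 36 of the 53 the gene that contains the snoRNA was also tested. These 36 snoRNA genes had a median of -0.40 and 11 did not overlap. The 31 containing genes had a median of 0.00, from -0.32 to 0.22. The pools did not overlap for 0 of the 31, against 3.47% of all genes, so that count says little. Snhg12, which contains Snord99, and Gas5, which contains Snord47, were not among the genes tested. Ncl, which encodes nucleolin and contains Snord82, differed by -0.11, and Ap1g1, which contains Snord71, by 0.15. By length, the pools did not overlap for 9 of 19 snoRNA genes of up to 80 nucleotides (47.4%) and 5 of 18 of 81 to 120 (27.8%). For those of over 120 it was 2 of 16 (12.5%), against 2.01% of all genes. The share without overlap thus fell with length, while the medians of these 3 length classes were -0.52, -0.42 and -0.49. Neither was tested. By brightness, 12 of the 27 brighter and 4 of the 26 dimmer genes did not overlap, with medians of -0.69 and -0.31.

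**Figure D3:**
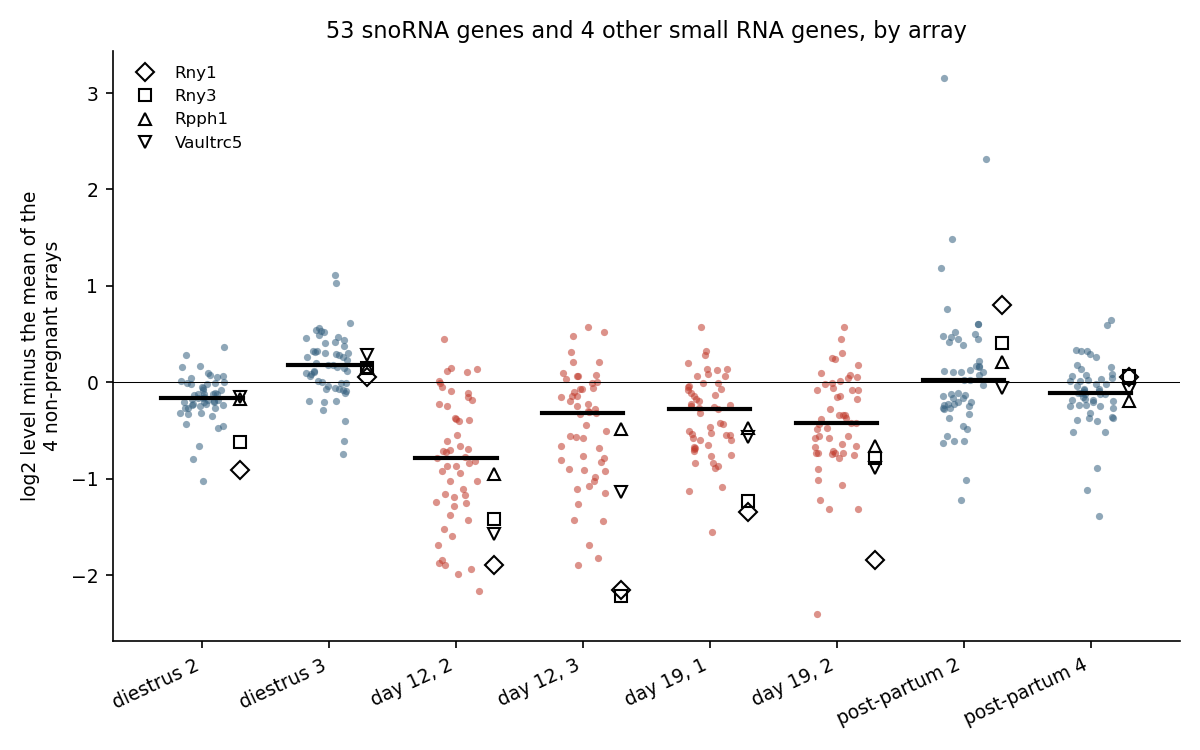
Each dot is 1 of 53 snoRNA genes on 1 array, as its log2 level minus the mean of the 4 non-pregnant arrays, with red for pregnant arrays, a black bar for the median and open symbols for 4 other small RNA genes. The medians are -0.79, -0.32, -0.28 and -0.42 on the pregnant arrays and -0.16 to 0.18 on the non-pregnant arrays, and Rny1 and Rny3 lie lower on the 4 pregnant arrays.

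Some other small RNA genes were lower on all 4 pregnant arrays, and others were not. Both Y RNA genes, whose products bind the Ro protein, were lower: Rny1 read 6.77 and 7.73 in diestrus, 5.78 and 5.53 on day 12, 6.33 and 5.84 on day 19, and 8.48 and 7.73 post-partum, and Rny3 read 8.003 and 8.77, 7.21 and 6.41, 7.39 and 7.83, and 9.03 and 8.69. Their differences were -1.81 ± 0.32 and -1.41 ± 0.30 (3.51-fold and 2.66-fold lower). Vaultrc5, a vault RNA, differed by -1.04 ± 0.20 and Rpph1, the RNA of RNase P, by -0.64 ± 0.14, again with no overlap. Others overlapped: the 5S ribosomal RNA gene n-R5s136 differed by -0.92, the spliceosomal RNA genes Rnu11 and Rnu12 by -0.13 and -0.00352, the RNase P RNA genes Rprl2 and Rprl1 by -0.19 and -0.03, and the telomerase RNA gene Terc by -0.17. Of the 4 guide RNA genes of Cajal bodies 0 were without overlap, against 3.47% of all genes, with differences from -0.56 for Scarna10 to 0.18 for Scarna17. The 7SK RNA gene Rn7sk read 12.82 to 13.06 on all arrays, close to the highest value of the data (13.32), with a difference of -0.06 ± 0.09. All of these come from the same RNA extracts, and neither RNA quality nor the yield of short RNA on the columns is recorded in the sources used here; their part was not tested.

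MicroRNA genes did not share this direction. Of 119 tested, 82 were higher and 37 lower, with a median of 0.10, and the pools did not overlap for 4 (3.36%, against 3.47% of all genes): Mir345, Mir219a-2 and Mir5123 higher and Mir196a-1 lower. The probe sets read the gene's transcript and do not tell the mature arms apart. The mature RNAs of these genes in RefSeq are shown with the seed, bases 2 to 8, in capitals; no seed is shared between genes.
mmu-miR-345-5p: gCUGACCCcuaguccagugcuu
mmu-miR-345-3p: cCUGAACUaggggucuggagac
mmu-miR-219a-5p: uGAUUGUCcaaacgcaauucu
mmu-miR-5123: uGUAGAUCcauaugccauggugug
mmu-miR-196a-5p: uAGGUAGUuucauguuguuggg
mmu-miR-196a-1-3p: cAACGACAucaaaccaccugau
Mir345 read 5.78 and 5.94 in diestrus, 6.25 and 6.27 on day 12, 6.29 and 6.44 on day 19, and 5.99 and 5.96 post-partum, a difference of 0.39 ± 0.09 (adjusted p 0.91 from limma). Mir196a-1 read 5.34 and 6.01 in diestrus, 4.87 and 4.87 on day 12, 4.74 and 5.01 on day 19, and 5.23 and 5.15 post-partum. Mir219a-2 passed the filter only through a pregnant state and Mir196a-1 only through a non-pregnant state.

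Most genes of the mitochondrion's own genome, and some respiratory chain genes encoded in the nucleus, were lower by small amounts. The 10 mitochondrially encoded genes tested were a group also singled out after the values were seen. Of these, 9 had all pregnant arrays below all non-pregnant arrays (90%, against 2.01% of all genes). The median over the 10 was -0.16. The 9 genes lie on 1 strand of the same genome and are not independent of each other, so the shares cannot be compared gene by gene. COX3, a subunit of cytochrome c oxidase, read 12.62 and 12.66 in diestrus, 12.28 and 12.27 on day 12, 12.36 and 12.53 on day 19, and 12.78 and 12.64 post-partum, a difference of -0.31 ± 0.09. ND4L and ND1, subunits of complex I, differed by -0.32 ± 0.10 and -0.21 ± 0.08, and COX1, CYTB, ND2, ND3, ND4 and ND5 by -0.14 to -0.17. These probe sets lay at 11.91 to 13.32, at the top of the range of the arrays, and the count depended on the scaling: after a repeated quantile normalization 4 of the 9 (COX3, ND1, ND2 and ND4L) still did not overlap and the median was -0.09. The tenth gene, ND6, is the 1 protein gene known to lie on the other strand of the mitochondrial genome. It read 6.71 and 6.96 in diestrus, 9.16 and 7.73 on day 12, 7.81 and 7.07 on day 19, and 7.997 and 7.15 post-partum, which overlapped.

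**Figure D4:**
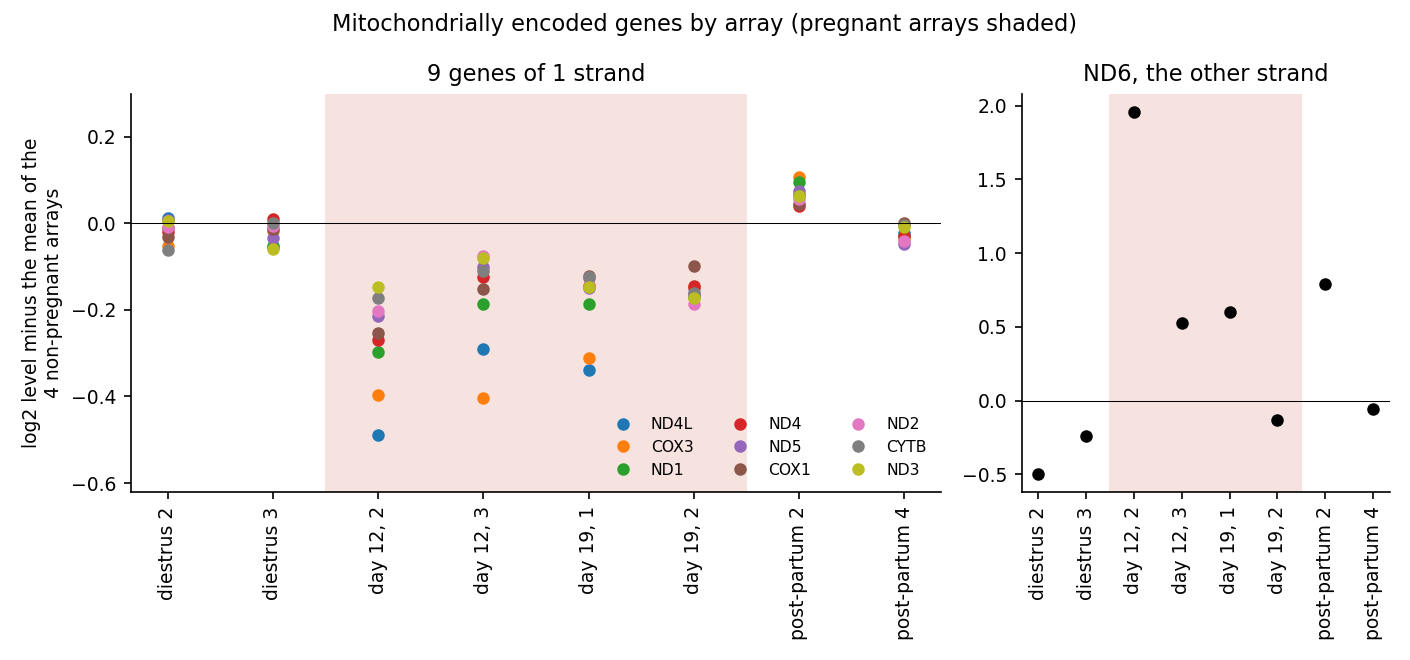
Log2 level of the mitochondrially encoded genes on each array minus the mean of the 4 non-pregnant arrays, with the 9 genes of 1 strand on the left and ND6 on the right, on axes of different range. The 9 genes lie below 0 on all 4 shaded pregnant arrays and near 0 on the others, while ND6 is highest on day 12 replicate 2 and overlaps between the pools.

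Among 47 nuclear genes of the respiratory chain, 30 were lower and 17 higher, with a median of -0.07, and 7 did not overlap, all lower (14.9%, against 2.01% of all genes): Atp5e, Atp5o, Cox5b, Cox6a2, Cox7a1, Cox8b and Cycs. Cox6a2, Cox7a1 and Cox8b are the muscle forms of their cytochrome c oxidase subunits. Cox8b read 12.35 and 12.34 in diestrus, 12.28 and 12.02 on day 12, 12.14 and 12.20 on day 19, and 12.45 and 12.40 post-partum, a difference of -0.22 ± 0.09. Atp5e differed by -0.41 ± 0.14 in the brighter and by -0.41 in the dimmer of its 2 probe sets, neither of which overlapped. The list's median by array was 0.06 and 0.03 on day 12 and 0.00 on day 19 replicate 1, and -0.31 on day 19 replicate 2. Without that array the list's median was 0.03, the opposite sign.

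**Figure D5:**
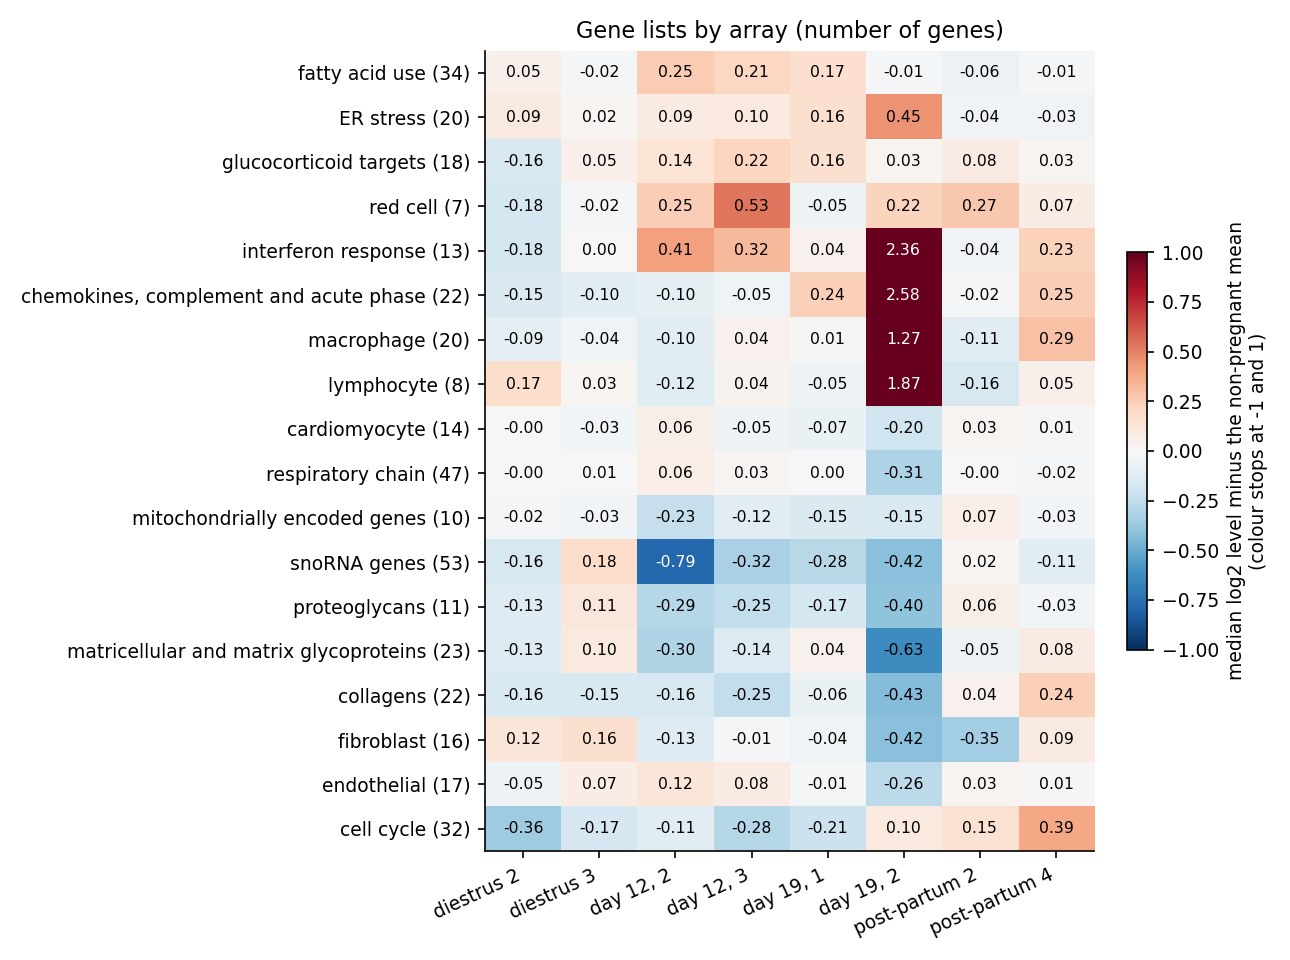
Median log2 level of the genes of each list on each array, minus the mean of the 4 non-pregnant arrays, with the number of genes tested in brackets; red is higher and blue lower, and the colour stops at -1 and 1. Fatty acid use is higher on 3 of the 4 pregnant arrays, proteoglycans and snoRNA genes are lower on all 4, and the immune lists are highest on day 19 replicate 2.

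The usual markers of cardiac load did not separate pregnancy from the non-pregnant states. Myh7, the slow myosin that returns under load, read 6.98 and 6.41 in diestrus, 6.32 and 6.97 on day 12, 8.99 and 9.69 on day 19, and 7.56 and 6.88 post-partum. It was high on day 19 and within the non-pregnant range or below it on day 12, and the pooled difference was 1.04 ± 0.67. Nppa and Nppb, the natriuretic peptide genes, differed by 0.15 ± 0.35 and 0.21 ± 0.285, and Acta1, skeletal actin, by 0.08 ± 0.42. The hypertrophy and load list had 12 of 18 members higher, a median of 0.08 and 0 members whose pools did not overlap; without day 19 replicate 1 the median was -0.07. Atrial markers were uneven among the arrays: Sln, the atrial inhibitor of the calcium pump, read 10.62 on day 19 replicate 1 and 7.89 on day 12 replicate 3, against 3.75 to 6.21 on the others. The median of the atrial list was 0.58 on day 19 replicate 1, against -0.21 to 0.23 on the other arrays. That of the mesothelium list was 0.75 on the same array, against -0.25 to 0.24. The part of atrial or surface tissue in the values of that array was not tested. Glucose and insulin genes (median -0.02), endothelial markers (0.01) and retinoid genes (-0.02) lay close to the median of all genes. Each list had 0 members that did not overlap, against 3.47% of all genes.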

How the data were processed

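The deposited values are log2 expression per probe set for 8 Affymetrix arrays. Per the submitters' processing notes, the authors used Affymetrix Expression Console and its RMA method, which corrects background, quantile normalizes and summarises probes; software versions, and the build behind the probe sets, were not given in the sources used here. Scanner files were not used here, so the precision is limited by the number of arrays. Of 34365 probe sets, 23521 had 1 gene symbol in the platform annotation, 1814 had several and 9030 were unlisted; only the first were named. The brightest probe set stood for each of 22180 genes, and 13872 genes were tested, those with at least 1 of the 4 state means at or above the median of all values (5.19).

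The pools of 4 arrays were compared with limma 3.58.1 in R 4.3.3 (lmFit and eBayes, 1 mean per pool, Benjamini-Hochberg over all genes tested, threshold 0.05); errors written with ± are standard errors from this fit. Fits with 1 mean per state gave the contrasts between single states. The scripts were checked on simulated data. Pools were said not to overlap where all 4 pregnant arrays lay on 1 side of all 4 others, and gap or distance means the space between them. Alternatives were array weights, a variance trend, a replicate block, other filters, probe set averaging, a second quantile normalization, median centring, and leaving out each array or state.

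The rule for named genes took, among genes whose pools did not overlap and leaving out predicted genes and small RNA genes, the 12 highest and 12 lowest by difference of those past the threshold or, to fill up, of unadjusted p under 0.01; of each list the 2 members of smallest p; and Myh7, Nppa, Nppb, Acta1, Col1a1 and Col3a1. Other genes in the text are members of a list or were picked after their values were seen. The members and all lists were chosen with earlier results of these data known. RefSeq sequences and gene places are those of GRCm38.p6.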

Additional observations from a re-analysis of the deposited data

Results flagged for a closer look

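In each pool of 4 arrays, 129 genes and list medians were examined for 1 array far from the other 3; chance marks about 1 in 20 such groups. In the pregnant pool, day 19 replicate 2 stood apart most often. Its list medians, relative to the non-pregnant mean, were 2.36 for interferon response (nearest array 0.41), 1.27 for macrophage genes (0.04), 1.87 for lymphocyte genes (0.04) and 2.58 for chemokines, complement and acute phase genes (0.24), and -0.307 for the respiratory chain (0.00282). On the same array Nkg7, a granule protein of cytotoxic lymphocytes, read 9.47 (nearest 5.84), Pfkfb3, which sets the pace of glycolysis, 7.64 (5.92), Pfkp, a phosphofructokinase, 9.52 (8.78), and Ankrd2, a stretch-responsive muscle protein, 6.82 (6.04). Elsewhere in that pool, Bmp10, an atrial growth factor, read 8.06 on day 19 replicate 1 (nearest 5.12), and Cenpf, a mitotic protein, 7.25 on day 12 replicate 2 (6.64).

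In the non-pregnant pool, post-partum replicate 2 stood apart with a fibroblast list median of -0.349 (nearest 0.0872), a mitochondrially encoded median of 0.0652 (nearest -0.0156), the chaperonin Hspd1 at 10 (nearest 10.5) and Jph2, which joins the membranes of the heart muscle cell, at 9.15 (nearest 8.84). Fbln2 read 8.96 on post-partum replicate 4 (nearest 8.55), and Apol11b read 3.87 on diestrus replicate 2 (nearest 4.7).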

How the results depend on the processing

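The count of genes passing the test was 0 in all 23 fits, with smallest adjusted p-values of 0.0555 to 0.947 from limma, so stability of calls cannot be read from it. With the replicate block the count was 0, with 329 genes at an unadjusted p under 0.05. The replicate 2 arrays of the 4 states correlated at -0.0593 to 0.22 in their deviations from the state means. With 2 arrays per state this cannot tell whether shared numbers pair the samples, and no pairing was assumed. Genes above in all pregnant arrays numbered 312 with no filter and 112 with the stricter filter. With fewer arrays the condition is easier to meet by construction: the higher and lower counts were 843 and 1136 without day 12, 1399 and 910 without day 19, 1027 and 1351 without diestrus, 925 and 1023 without post-partum, and 326 to 698 and 388 to 583 without 1 array. The share higher among genes whose pools did not overlap was 42% as deposited, 34.8% after a second quantile normalization and 34.7% after median centring. List medians moved as follows, and the cause was not tested. Mitochondrially encoded genes stood at -0.0944 after quantile normalization. With the stricter filter, nerve stood at -0.107, red cell at 0.611 and snoRNA genes at -0.739. Without day 12, endothelial stood at -0.137, fatty acid use 0.0823, heat shock 0.0403, hypertrophy 0.359, immediate-early 0.494, neuregulin 0.0041 and vascular growth -0.166. Without diestrus, neuregulin stood at -0.0377 and proteoglycans at -0.386. Without post-partum, cell cycle stood at 0.12, collagens at -0.0371 and heat shock at 0.0833. Leaving out 1 array turned the sign of 16 of 37 list medians under at least 1 omission, among them hypertrophy and load (-0.0655 to 0.138). Without 1 array, heat shock ranged from -0.0773 to 0.0548 and the steroid list from -0.12 to -0.0351. Signs turned for Myh7 (-0.31), Notch3 (0.0161), Nppa (-0.368) and Nppb (-0.183) without day 19, for Nppb (-0.0651) and Acta1 (-0.604) without diestrus, for Col3a1 (0.0257) without post-partum, and for Acta1 (-0.00364) and Nppa (-0.0122) with the replicate block. Without 1 array, Acta1 ranged from -0.233 to 0.393, Nppa from -0.171 to 0.341 and Nppb from -0.035 to 0.359.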

Other observations

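Probe sets without 1 gene symbol were not named. Of 3935 such probe sets above the filter, all pregnant arrays lay above all others for 67 and below them for 143 (5.34%), 0 passed limma's test, and the smallest adjusted p was 0.0983.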
